A study of Mus musculus with 18 samples.

Results

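Glycolysis and gluconeogenesis run over the same carbon path in opposite directions in hepatocytes, and the liver changes direction at a small number of steps that are not freely reversible. Expression of 9 genes that act at or control these steps was described here in the livers of wild-type and *Gpr180*KO mice on a high-fat diet (HFD). The 9 are *Slc2a2* and *Gckr* at glucose entry, *Pfkl*, *Pfkfb1* and *Pklr* in glycolysis, *Pck1*, *Fbp1* and *G6pc* in gluconeogenesis, and the coactivator *Ppargc1a*. They were chosen by name from the 23352 gene symbols of the deposited tables. Each of the 9 had an estimate in every liver and a mean of at least 1 FPKM (fragments per kilobase of transcript, scaled to the mapped fragments of each library), so no member was lost to a filter.

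The data were 18 poly(A) RNA libraries, each from the liver of a single male mouse aged 20 weeks, of which 9 were wild-type (WT, C57BL6) and 9 were *Gpr180*KO, all fed HFD. The knockout was global and was made by genome editing that removes a coding exon of *Gpr180*, a G protein-coupled receptor gene, so it was not limited to hepatocytes. Mice are named by genotype and the number in their title. The titles come in 2 styles, with the mouse number before the diet (number-first, 4 livers per genotype: WT317 to WT320 and KO319 to KO322) or after it (diet-first, 5 per genotype), and the labels do not say what the styles mark. *Gpr180* was 6.79 ± 1.99 FPKM in WT and 1.60 ± 0.371 FPKM in *Gpr180*KO livers (mean ± SD, n = 9 each), without overlap. The labels give no feeding state or hour at which the livers were taken.

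As background, glucose enters the hepatocyte through GLUT2, the product of *Slc2a2*, and *Gckr* encodes a regulatory protein that acts at the phosphorylation of glucose. *Pfkl* encodes the liver subunit of phosphofructokinase, *Pfkfb1* the bifunctional enzyme that makes and removes its activator fructose 2,6-bisphosphate, and *Pklr* the liver and red cell pyruvate kinase that closes glycolysis. In the opposite direction, *Pck1* encodes the cytosolic phosphoenolpyruvate carboxykinase, *Fbp1* fructose-1,6-bisphosphatase and *G6pc* the catalytic subunit of glucose-6-phosphatase, which releases free glucose. In a normal liver, feeding and carbohydrate raise *Pklr* through the factor ChREBP, whereas fasting and glucagon raise *Pck1*, *G6pc* and the coactivator PGC-1α encoded by *Ppargc1a*.

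The promoters of *Pklr*, *Pck1* and *G6pc* are shown because *Pklr* and *Pck1* had the largest log2 fold changes of the 9 genes between genotypes, and *G6pc* varied together with *Pck1* between livers. All 9 genes matched the RefSeq promoter table (GRCm38.p6), with 13 windows in all, each of 250 bases before and 50 after a start site. Capitals mark CACGGG, the E-box-like motif of carbohydrate response elements, and its reverse complement. They also mark ACGTCA, which is the core of cAMP response elements, CAAAACA or its reverse complement, which is an insulin response motif, and the core promoter motif TATAAA. The *Pklr* window is that of the downstream of its 2 start sites, at chr3:89136373-89136672 on the plus strand, the *Pck1* window is chr2:173152823-173153122 on the plus strand and the *G6pc* window is chr11:101367466-101367765 on the plus strand.
Pklr: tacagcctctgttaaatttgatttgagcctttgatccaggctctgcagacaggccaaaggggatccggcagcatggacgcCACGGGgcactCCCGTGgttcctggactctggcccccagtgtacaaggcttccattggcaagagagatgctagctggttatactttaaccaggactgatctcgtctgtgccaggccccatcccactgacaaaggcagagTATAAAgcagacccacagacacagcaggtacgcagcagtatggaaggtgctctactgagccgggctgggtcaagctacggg
Pck1: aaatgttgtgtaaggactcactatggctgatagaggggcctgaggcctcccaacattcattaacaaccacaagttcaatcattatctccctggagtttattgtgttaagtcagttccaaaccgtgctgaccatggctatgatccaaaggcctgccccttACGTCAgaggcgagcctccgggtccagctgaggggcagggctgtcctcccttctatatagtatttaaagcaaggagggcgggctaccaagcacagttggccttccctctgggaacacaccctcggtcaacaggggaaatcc
G6pc: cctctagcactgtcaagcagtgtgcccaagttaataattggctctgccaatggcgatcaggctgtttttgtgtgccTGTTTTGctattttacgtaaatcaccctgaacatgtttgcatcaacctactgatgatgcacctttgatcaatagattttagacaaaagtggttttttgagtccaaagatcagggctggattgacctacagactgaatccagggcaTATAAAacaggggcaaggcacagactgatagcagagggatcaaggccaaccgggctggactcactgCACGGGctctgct

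In the *Pklr* window, CACGGG lay at −170 and its reverse complement at −159 relative to the start site, 5 bases apart, followed by TATAAA at −31. This arrangement with 5 bases between the motifs occurred in 1 of 32851 RefSeq promoter windows (0.00304%), whereas CACGGG on either strand occurred in 10.1% of windows. The 1 window is the *Pklr* window itself, so the count is a description and not a test. The upstream *Pklr* start site lies 481 bases away, and its window held none of the motifs searched. *Pck1* had ACGTCA at −91, and the *Ppargc1a* window had the same letters at −50, against 7.51% of all windows. *G6pc* had CAAAACA on the minus strand at −174, TATAAA at −29 and CACGGG at 38 bases after the start. CAAAACA was also found in the *Gckr* window at −83, and occurred in 6.28% of windows, while TATAAA occurred in 13.6%. The palindrome CACGTG (7.15% of windows) and the forkhead motif GTAAACA (3.65% of windows) were searched on both strands as well, with no match in the 13 windows. These matches describe letters only, and the FPKM of *Pklr* do not separate its 2 start sites. The *Ppargc1a* window lies beyond the end of that gene's locus in the files (chr5:51454249-51553921, mm10).

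FPKM are scaled by transcript length, so levels could be compared between the genes. In WT livers the order of mean levels was *Fbp1* (704 ± 99.1 FPKM), *Pck1* (470 ± 201), *G6pc* (162 ± 65.9), *Pklr* (129 ± 26.7), *Slc2a2* (117 ± 21.1), *Gckr* (68.4 ± 19.6), *Pfkfb1* (30.4 ± 4.25), *Pfkl* (9.87 ± 2.56) and *Ppargc1a* (1.87 ± 0.620). The gluconeogenic enzymes thus held the 3 highest mean levels. Neighbours in this order were not always separated, since *Fbp1* exceeded *Pck1* in 7 of 9 WT livers, *G6pc* exceeded *Pklr* in 6 and *Pklr* exceeded *Slc2a2* in 6, while the other neighbours kept their order in all 9. In *Gpr180*KO livers *Slc2a2* stood above *Pklr* in 9 of 9, *Pklr* stood above *Gckr* in only 5 of 9, and *Fbp1* and *Pck1* had close means (747 ± 85.1 and 735 ± 202 FPKM).

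The spread between livers differed greatly among the genes. From the lowest to the highest of the 18 livers *Fbp1* varied 1.51-fold, *Pfkfb1* 2.02-fold and *Slc2a2* 2.17-fold, whereas *Pck1* varied 4.28-fold, *Ppargc1a* 4.32-fold, *G6pc* 5.11-fold and *Pklr* 6.46-fold. The deposited tables also give a lower and an upper bound for each FPKM value, and these bounds contained the value in all 18 livers for *Pklr*, *Pfkl* and *Ppargc1a*. For these 3 genes 0.5 of the interval's length had a median of 3.72%, 10.7% and 14.5% of the value. For *Fbp1*, *Pck1*, *G6pc* and *Slc2a2* the value lay above its own upper bound in all 18 livers, and it did so in 16 livers for *Gckr* and in 4 for *Pfkfb1*. The bounds are therefore not used here as the precision of those 6 genes. Whether the values or the bounds are off was not tested, so the order of close neighbours given above is uncertain.

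**Figure D1:**
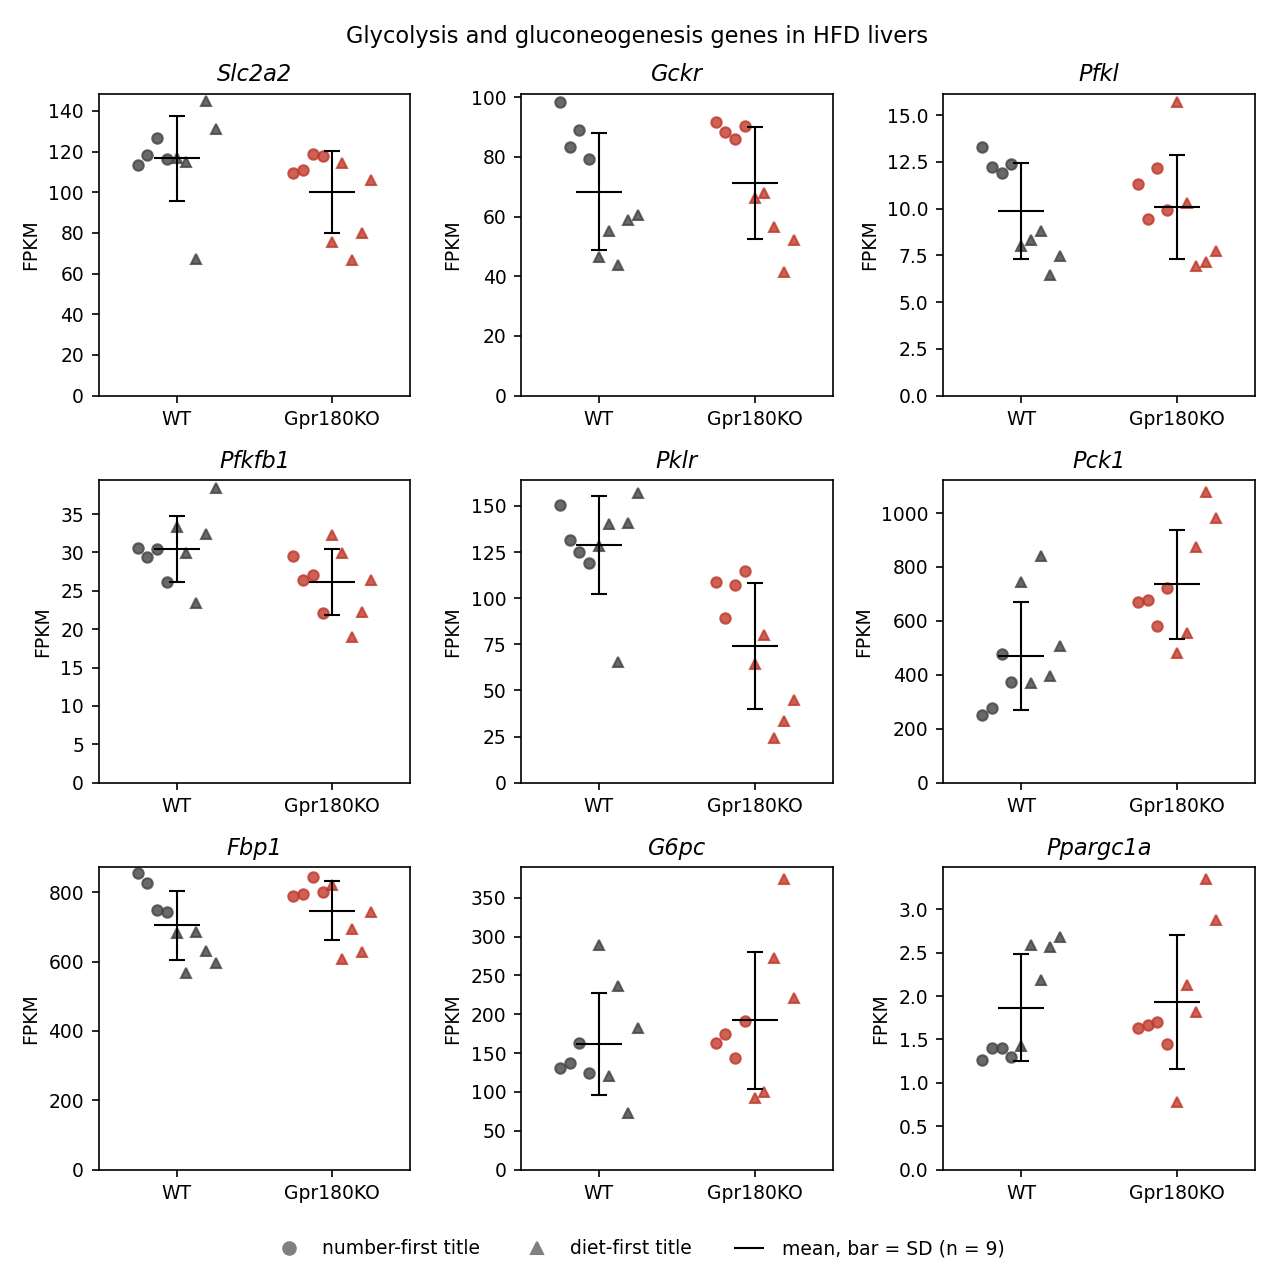
FPKM (vertical axes, from 0) of the 9 genes in each liver, for WT (grey) and *Gpr180*KO (red), with circles for number-first and triangles for diet-first titles and bars for mean ± SD (n = 9). *Pklr* sits lower in *Gpr180*KO apart from the WT liver at 65.3 FPKM, *Pck1* sits higher with overlap, and *Gckr* splits by title style rather than by genotype.

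The comparison of genotypes asked whether the lack of *Gpr180* went with a different setting of these steps in HFD livers. *Pklr* was lower on average in *Gpr180*KO livers and *Pck1* was higher, each narrowly missing the threshold, and the other 7 genes differed by less than 0.3 on the log2 scale. In the limma fit across 10783 genes with a mean of at least 1 FPKM, none of the 9 passed an adjusted p of 0.05, and 3 (*Pklr*, *Pck1* and *Pfkfb1*) had an unadjusted p under 0.05. Over all genes, 4.79% were called in either direction, 4.33% lower and 0.454% higher in *Gpr180*KO, and 2396 genes had an unadjusted p under 0.05.

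Genes were lower in *Gpr180*KO as a whole in these units, because the median log2 fold change over all genes was −0.13. The 516 calls were 467 lower and 49 higher. After median-of-ratios scaling, which sets the typical gene equal between libraries, the median was 0.02, 2.74% of genes were called, and the split was 148 lower and 147 higher. For this reason log2 fold changes are given below as deposited and, where it matters, after that scaling.

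*Pklr* ranged from 65.3 to 157.1 FPKM in WT livers (median 132) and from 24.3 to 115 FPKM in *Gpr180*KO livers (median 80.2). The overlap was due to the liver WT134 at 65.3 FPKM, since the other 8 WT livers lay at 119 FPKM or above, beyond the highest *Gpr180*KO value. The mean in *Gpr180*KO was 57.5% of that in WT (74.1 ± 34.1 against 129 ± 26.7 FPKM), a log2 fold change of −0.94 ± 0.27 (SE, limma adjusted p = 0.0506), or −0.81 relative to the median gene. After median-of-ratios scaling it was −0.78 (limma adjusted p = 0.102). Without WT134 it was −1.05 (limma adjusted p = 0.0303). All 9 *Gpr180*KO livers lay below the WT mean.

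Within the title styles, *Pklr* was 119 to 151 FPKM in WT and 89.1 to 115 FPKM in *Gpr180*KO number-first livers, with no overlap (log2 difference −0.33, two-sided exact permutation p = 0.0286, the smallest that 4 against 4 allows). Ranges also did not overlap in these livers for 14.8% of all genes. In diet-first livers the ranges were 65.3 to 157.1 and 24.3 to 80.2 FPKM (log2 difference −1.42, exact permutation p = 0.0159). The lowest 3 *Pklr* values of the series, in KO53 (24.3 FPKM), KO54 (33.2 FPKM) and KO56 (44.6 FPKM), all came from diet-first titles. The difference between the 2 styles was 1.09 on the log2 scale (limma interaction unadjusted p = 0.0148, adjusted p = 0.588), and it was not called for any gene, although 832 genes had an unadjusted p under 0.05.

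*Pck1* moved the other way. It ranged from 252 to 841 FPKM in WT (median 395) and from 482 to 1079 FPKM in *Gpr180*KO livers (median 676), and 6 of 9 WT livers lay below the lowest *Gpr180*KO value. The mean in *Gpr180*KO was 156.4% of that in WT (735 ± 202 against 470 ± 201 FPKM), and all 9 *Gpr180*KO livers exceeded the WT mean. The log2 fold change was 0.71 ± 0.21 (SE, limma adjusted p = 0.0605), or 0.83 relative to the median gene. After median-of-ratios scaling it was 0.86 (limma adjusted p = 0.0462), so that 1 of the 9 genes was called there.

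In number-first livers *Pck1* was 252 to 476 FPKM in WT and 581 to 722 FPKM in *Gpr180*KO, again with no overlap, as for 14.8% of all genes (log2 difference 0.98, exact permutation p = 0.0286). In diet-first livers the highest WT values, 744 FPKM in WT131 and 841 FPKM in WT134, lay among those of *Gpr180*KO livers, whose range was 482 to 1079 FPKM (log2 difference 0.48, exact permutation p = 0.190). The interaction of genotype with title style was 0.50 (limma adjusted p = 0.789). When title style entered the limma fit as a block, the log2 fold changes of *Pklr* and *Pck1* were the same and their adjusted p-values were 0.0162 and 0.0263, so 2 of 9 genes were called, against 10.7% of all genes in that fit. With median-of-ratios scaling added to the block, *Pck1* passed (0.86, limma adjusted p = 0.0149) and *Pklr* did not (−0.78, limma adjusted p = 0.0527).

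The ranges of the 2 remaining gluconeogenic enzymes overlapped between genotypes. *G6pc* ranged from 73.2 to 289 FPKM in WT (median 137) and from 92.0 to 374 FPKM in *Gpr180*KO (median 175), with means of 162 ± 65.9 and 193 ± 88.3 FPKM (log2 fold change 0.23 ± 0.26, limma adjusted p = 0.621). The highest value came from KO54 and the lowest from WT156. In number-first livers the *G6pc* means were 139 FPKM in WT and 168 FPKM in *Gpr180*KO, with overlap (exact permutation p = 0.0571). In diet-first livers they were 180 and 212 FPKM (exact permutation p = 0.722). *Fbp1* ranged from 567 to 857 FPKM (median 685) and from 609 to 844 FPKM (median 790), with a log2 fold change of 0.09 ± 0.09 (SE, limma adjusted p = 0.578). *Fbp1* therefore held the narrowest range of the 9 genes and a small difference in means.

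*Ppargc1a* was the least expressed member, at 1.26 to 2.68 FPKM in WT (median 1.42) and 0.775 to 3.35 FPKM in *Gpr180*KO livers (median 1.70). Its log2 fold change was 0.02 ± 0.23 (SE, limma adjusted p = 0.973), and it turned to −0.01 when FPKM were rescaled to a common sum (TPM). In number-first livers the ranges did not overlap (1.26 to 1.40 against 1.45 to 1.70 FPKM, exact permutation p = 0.0286), whereas in diet-first livers they did, at 1.42 to 2.68 and 0.775 to 3.35 FPKM (exact permutation p = 0.714). The number-first means were 1.34 and 1.61 FPKM, while 0.5 of the deposited interval's length was 14.5% of a single value at the median.

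At glucose entry, *Slc2a2* ranged from 67.3 to 145 FPKM in WT (median 117) and from 66.8 to 119 FPKM in *Gpr180*KO (median 109). The means were 117 ± 21.1 and 99.9 ± 20.1 FPKM (log2 fold change −0.23 ± 0.14, limma adjusted p = 0.343). Number-first livers stayed within 109 to 127 FPKM, and the 4 lowest values were those of WT134, KO51, KO53 and KO54, all diet-first. *Gckr* ranged from 43.9 to 98.4 FPKM in WT (median 60.7) and from 41.5 to 91.7 FPKM in *Gpr180*KO (median 68.0), with a log2 fold change of 0.06 ± 0.18 (SE, limma adjusted p = 0.854).

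At the phosphofructokinase step, *Pfkfb1* ranged from 23.4 to 38.4 FPKM in WT (median 30.5) and from 19.0 to 32.3 FPKM in *Gpr180*KO (median 26.4). Its log2 fold change was −0.23 ± 0.11 (SE, limma adjusted p = 0.211), and −0.07 after median-of-ratios scaling. *Pfkl* ranged from 6.45 to 13.3 FPKM in WT (median 8.83) and from 6.95 to 15.7 FPKM in *Gpr180*KO (median 9.95), with a log2 fold change of 0.03 ± 0.17 (SE, limma adjusted p = 0.930), −0.22 in number-first livers and −0.01 with TPM scaling. The highest *Pfkl* value was in KO51, and without it the log2 fold change was −0.06. KO51 also had the lowest *Ppargc1a* value and the highest sum of FPKM over all genes (718746, against a median of 570149).

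**Figure D2:**
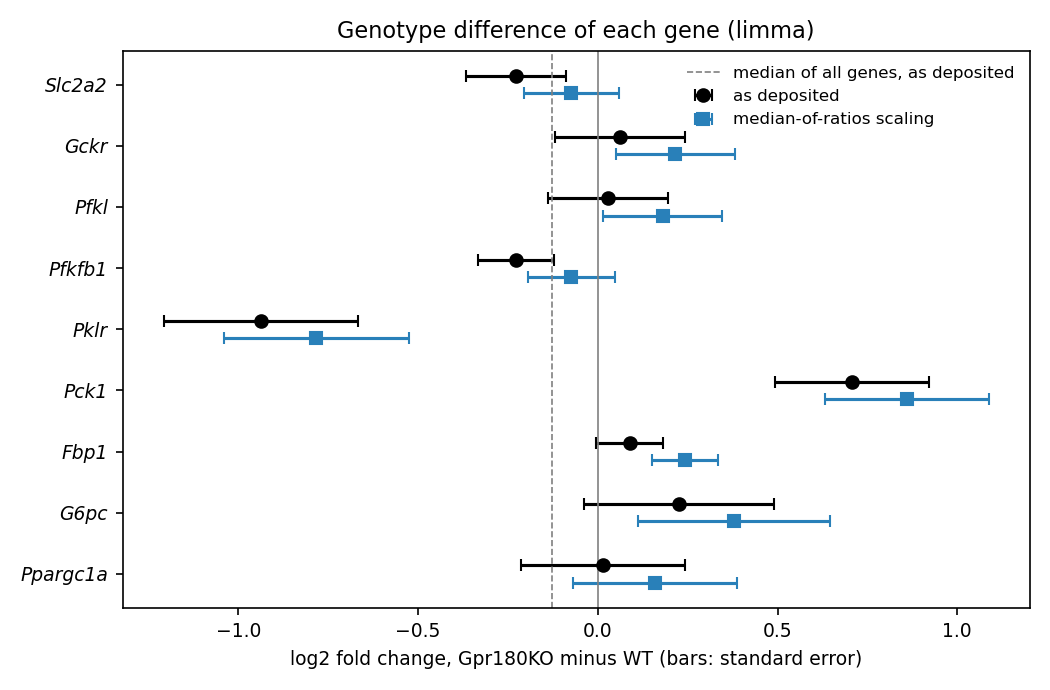
Log2 fold change of each gene, *Gpr180*KO minus WT (horizontal axis, bars ± SE from limma), as deposited (black circles) and after median-of-ratios scaling (blue squares). *Pklr* lies at −0.94 and −0.78 and *Pck1* at 0.71 and 0.86, and the other 7 genes stay within 0.4 of 0. The dashed line marks the median of all genes, −0.13.

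For several of the 9 genes the title style separated livers more than genotype did. Adding title style to the genotype term called 22.9% of all genes for style. *Gckr* was 79.3 to 98.4 FPKM in the 8 number-first livers and 41.5 to 68.0 FPKM in the 10 diet-first livers, without overlap (log2 difference 0.70 ± 0.09, SE, limma adjusted p = 0.000141). *Fbp1* (0.27, limma adjusted p = 0.00819), *Pfkl* (0.45, limma adjusted p = 0.0240) and *Pklr* (0.66, limma adjusted p = 0.0478) were also higher in number-first livers. *Pck1* (−0.45, limma adjusted p = 0.107), *Ppargc1a* (−0.49, limma adjusted p = 0.0932) and *G6pc* (−0.18, limma adjusted p = 0.668) had negative values that did not pass. Both styles hold both genotypes, so the style is not confounded with genotype, but what differed between the sets is not given in the labels.

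Across the 18 livers, expression of *Pck1* and *G6pc* rose and fell together, and *Pklr* ran opposite to *Pck1*. For 6 pairs of the genes on the log2(FPKM + 0.1) scale, p-values came from 100000 permutations and were adjusted over the 6. *Pck1* and *G6pc* had Pearson r = 0.73 (permutation adjusted p = 0.00136) and Spearman rho = 0.82 (permutation adjusted p = 0.00042). The relation was present in WT (r = 0.72), *Gpr180*KO (r = 0.95), number-first (r = 0.82) and diet-first livers (r = 0.86), and without the 2 livers farthest from the median, WT317 and WT318 (r = 0.83).

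*Pklr* and *Pck1* had r = −0.72 (permutation adjusted p = 0.00136) and rho = −0.74 (permutation adjusted p = 0.00098). The same sign was found in WT (r = −0.63), *Gpr180*KO (r = −0.65), number-first (r = −0.83) and diet-first livers (r = −0.77), and after subtracting the mean of each genotype and style (r = −0.69). By rank it was weaker within a genotype, with rho = −0.40 in WT (permutation p = 0.291) and −0.42 in *Gpr180*KO (permutation p = 0.270). After subtracting the mean of each genotype and style rho was −0.79. Leaving out KO53 and KO54, farthest from the median of *Pklr*, gave r = −0.64. WT134 joined the lowest *Pklr* value of the WT livers (65.3 FPKM) with their highest *Pck1* value (841 FPKM).

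*Pklr* and *Slc2a2* had r = 0.81 (permutation adjusted p = 0.00136) and rho = 0.77 (permutation adjusted p = 0.00098). This relation was 0.79 in diet-first and 0.34 in number-first livers, where *Slc2a2* hardly varied, and 0.67 without KO53 and KO54. *Pklr* and *Gckr* had r = 0.50 (permutation adjusted p = 0.0506) and rho = 0.33 (permutation adjusted p = 0.178). The relation was 0.25 in number-first and 0.28 in diet-first livers, and 0.46 in WT and 0.88 in *Gpr180*KO livers. After subtracting the mean of each genotype and style, which removes the split of *Gckr* by style, this pair passed (r = 0.71, permutation adjusted p = 0.00177, rho = 0.81, permutation adjusted p = 0.00033). Those permutations took no account of the subtracted means or of unequal spread between the styles. *Ppargc1a* was not linked past the threshold to *Pck1* (r = 0.40, permutation adjusted p = 0.120, rho = 0.49, permutation adjusted p = 0.0622) or *G6pc* (r = 0.32, permutation adjusted p = 0.203, rho = 0.34, permutation adjusted p = 0.178).

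**Figure D3:**
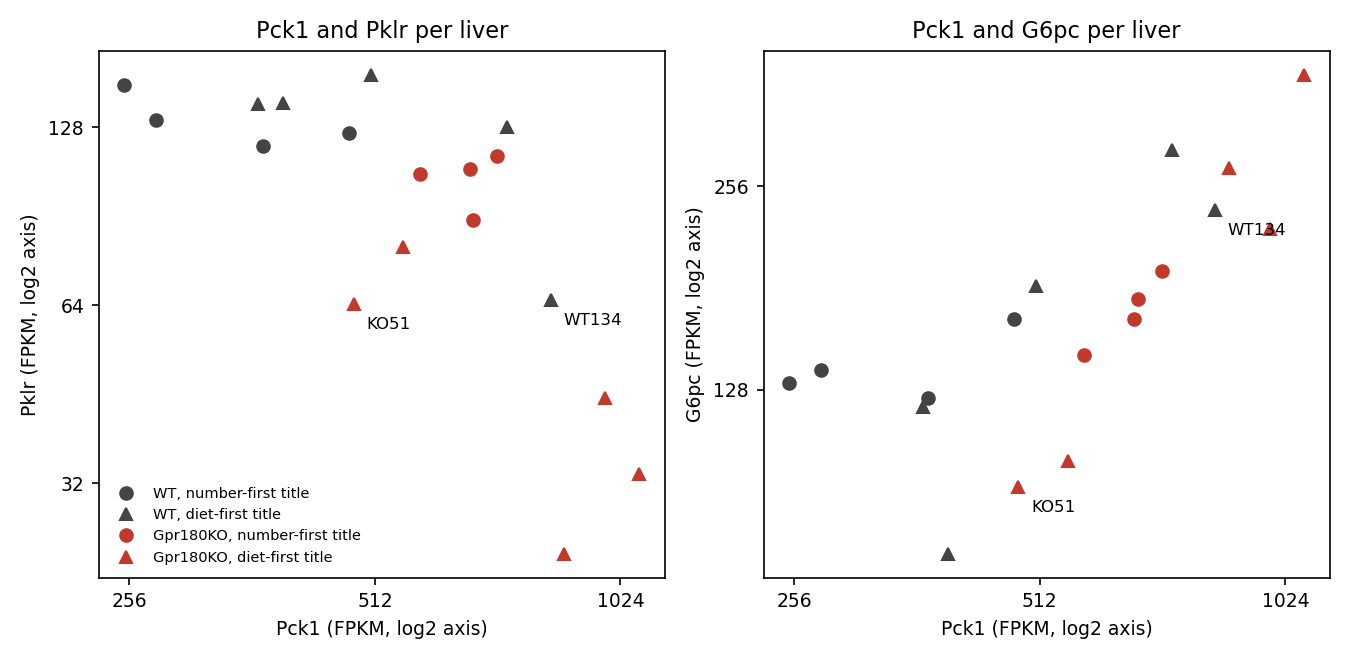
FPKM of *Pck1* (horizontal, log2 axis) against *Pklr* (left) and *G6pc* (right, both log2 axes) in the 18 livers, WT grey and *Gpr180*KO red, circles number-first and triangles diet-first. *Pklr* falls as *Pck1* rises (r = −0.72) and *G6pc* rises with it (r = 0.73), and WT134 lies beside *Gpr180*KO livers in both panels.

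Ratios of enzymes that act in opposite directions at the same step were formed within each liver, where scaling between libraries cancels, and were not tested. *Pck1* over *Pklr* ranged from 1.67 to 12.9 in WT (median 3.13) and from 5.43 to 36.0 in *Gpr180*KO (median 7.48). The means of the log2 ratios were 1.80 ± 0.871 and 3.44 ± 1.11 (SD, n = 9 each), a 3.13-fold difference. In number-first livers the ratio was 1.67 to 3.80 in WT and 5.43 to 7.59 in *Gpr180*KO, without overlap, and in diet-first livers it was 2.62 to 12.9 and 6.91 to 36.0. The overlap came from WT134.

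*Fbp1* over *Pfkl* differed by 0.06 on the log2 scale (WT 6.19 ± 0.233, *Gpr180*KO 6.25 ± 0.314), less than the SD within either genotype, with 0.25 in number-first livers, where the ranges did not overlap (59.9 to 67.6 against 69.5 to 84.1), and −0.09 in diet-first livers. Of these 2 ratios, only *Pck1* over *Pklr* had a difference of log2 means beyond the SD within each genotype.

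**Figure D4:**
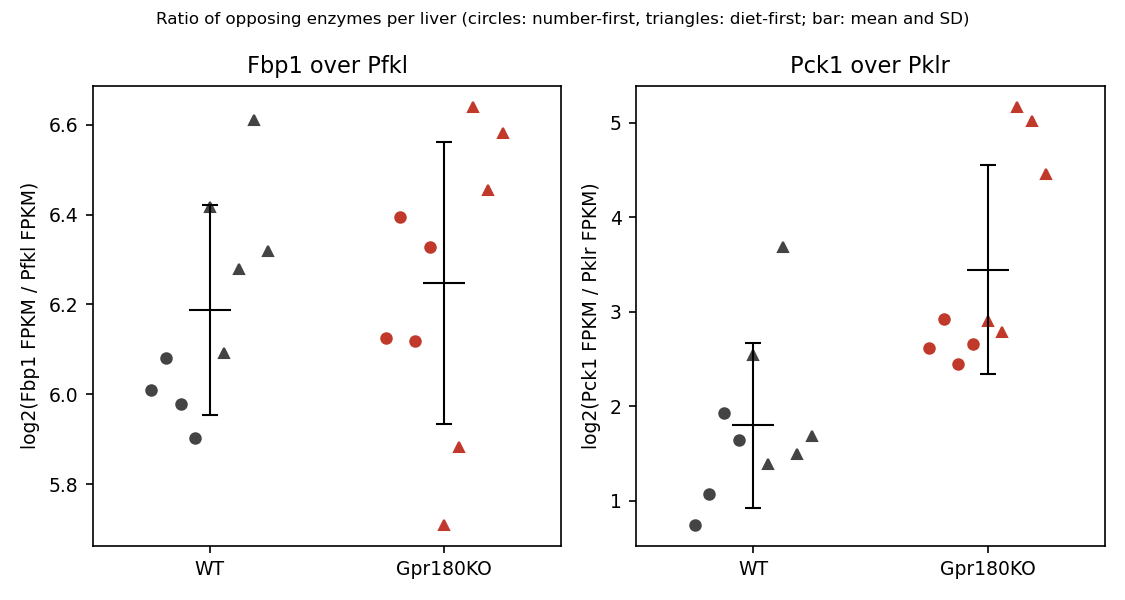
Log2 ratio of the FPKM of opposing enzymes in each liver (vertical axes) for *Fbp1* over *Pfkl* and *Pck1* over *Pklr*, WT grey and *Gpr180*KO red, circles number-first and triangles diet-first, with mean ± SD (n = 9). *Pck1* over *Pklr* differs by 1.64 between the means, against 0.06 for the other ratio.

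The rest of the pathway was read from lists that include the members. Of 21 glycolytic enzymes tested, 3 were lower and none higher in *Gpr180*KO (limma), beside 4.33% lower and 0.454% higher over all genes. An unadjusted p under 0.05 was found for 9 of the 21, beside 2396 of the 10783 genes tested. These shares over all genes also stand beside the counts of the other lists. Of the 21 log2 fold changes, 19 were below 0 (median −0.19, beside −0.13 for all genes). *Eno1*, the enolase that makes phosphoenolpyruvate, fell from 174 ± 53.1 to 108 ± 13.3 FPKM (−0.64 ± 0.16 on the log2 scale, adjusted p = 0.0298 in limma). *Pfkfb3*, an isoform of the fructose 2,6-bisphosphate enzyme, fell from 2.40 ± 0.707 to 1.34 ± 0.463 FPKM (−0.82 ± 0.20, limma adjusted p = 0.0279), and *Gpi1*, glucose-6-phosphate isomerase, from 70.2 ± 6.94 to 55.7 ± 9.09 FPKM (−0.35 ± 0.10, limma adjusted p = 0.0443). None of the 21 was called after median-of-ratios scaling, beside 2.74% of all genes, and the list's median was then −0.04. With the title style block 5 were called, beside 10.7% of all genes, namely these 3, *Pklr* and *Pkm*, the other pyruvate kinase gene.

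Among 11 tested genes of gluconeogenesis and the glucose-6-phosphatase system, none was called in the limma fit (4 at an unadjusted p under 0.05), and the median log2 fold change was 0.00, with 5 below and 6 above 0. *Pck1* was the only call of this list after median-of-ratios scaling and with the title style block. Glucose entry and phosphorylation gave no call among 8 genes (2 at an unadjusted p under 0.05), and entry of fructose and other hexoses none among 8 (0 at an unadjusted p under 0.05). The 22 regulators of glucose genes, which include *Ppargc1a*, gave none (3 at an unadjusted p under 0.05), and the 12 clock genes none (2 at an unadjusted p under 0.05). After median-of-ratios scaling 1 regulator was called higher, *Srebf1* (0.47, limma adjusted p = 0.0449), which encodes a lipogenic transcription factor, and no clock gene was called. With the title style block 1 regulator was lower, *Txnip* (−0.46, limma adjusted p = 0.0381), which encodes an inhibitor of glucose uptake, and no gene of the entry, hexose or clock lists was called.

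For pyruvate entry into mitochondria, 1 of 12 genes was called, the pyruvate carrier subunit *Mpc1*, which fell from 387 ± 40.6 to 301 ± 34.5 FPKM (−0.37 ± 0.08 on the log2 scale, adjusted p = 0.0168 in limma, and −0.21 with adjusted p = 0.132 after median-of-ratios scaling). With the title style block *Pdk4*, a kinase that inhibits pyruvate dehydrogenase, was also lower (−0.85, limma adjusted p = 0.0120, against 0.165 without the block). For glycogen, 3 of 14 genes were lower, beside 4.33% of all genes. They were the glycogen primer *Gyg* (−0.66, limma adjusted p = 0.0154), the branching enzyme *Gbe1* (−0.57, limma adjusted p = 0.0385) and the entry labelled *Pgm1* (−0.81, limma adjusted p = 0.0152). *Gyg* and *Pgm1* were also called after median-of-ratios scaling, beside 2.74% of all genes. *Pgm1* had only 3.62 ± 0.791 FPKM in WT livers, and *Pgm2* in this annotation, at 110 ± 11.4 FPKM, had a log2 fold change of 0.02.

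Of 12 genes known to rise on fasting, 1 was lower, *Lpin1* (−0.72, limma adjusted p = 0.0431, and −0.57 with adjusted p = 0.110 after median-of-ratios scaling), which encodes a phosphatidate phosphatase, and 1 was higher, *Sds*, serine dehydratase, which yields pyruvate from serine. *Sds* rose from 67.2 ± 16.1 to 119 ± 37.0 FPKM (0.79 ± 0.17, limma adjusted p = 0.0166, and 0.94 with adjusted p = 0.0204 after median-of-ratios scaling). The median of that list was −0.16. With the title style block *Pdk4*, which is in this list too, was also lower. Of 10 genes known to rise on feeding, 1 was lower, the ATP citrate lyase gene *Acly* (−0.66, limma adjusted p = 0.0412), beside 4.33% of all genes. An unadjusted p under 0.05 was found for 8 of the 10, beside 2396 of the 10783 genes tested. Of the log2 fold changes 9 were below 0, and the median was −0.56, or −0.41 after median-of-ratios scaling. After that scaling *Acly* was not called (limma adjusted p = 0.104) and *Srebf1*, which is also in this list, was called higher. With the title style block 4 of the 10 were lower, beside 10.7% of all genes called in either direction. They were *Acly* (limma adjusted p = 0.0143), the fatty acid synthase gene *Fasn* (0.0213), the malic enzyme gene *Me1* (0.0201) and *Txnip* (0.0381).

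**Figure D5:**
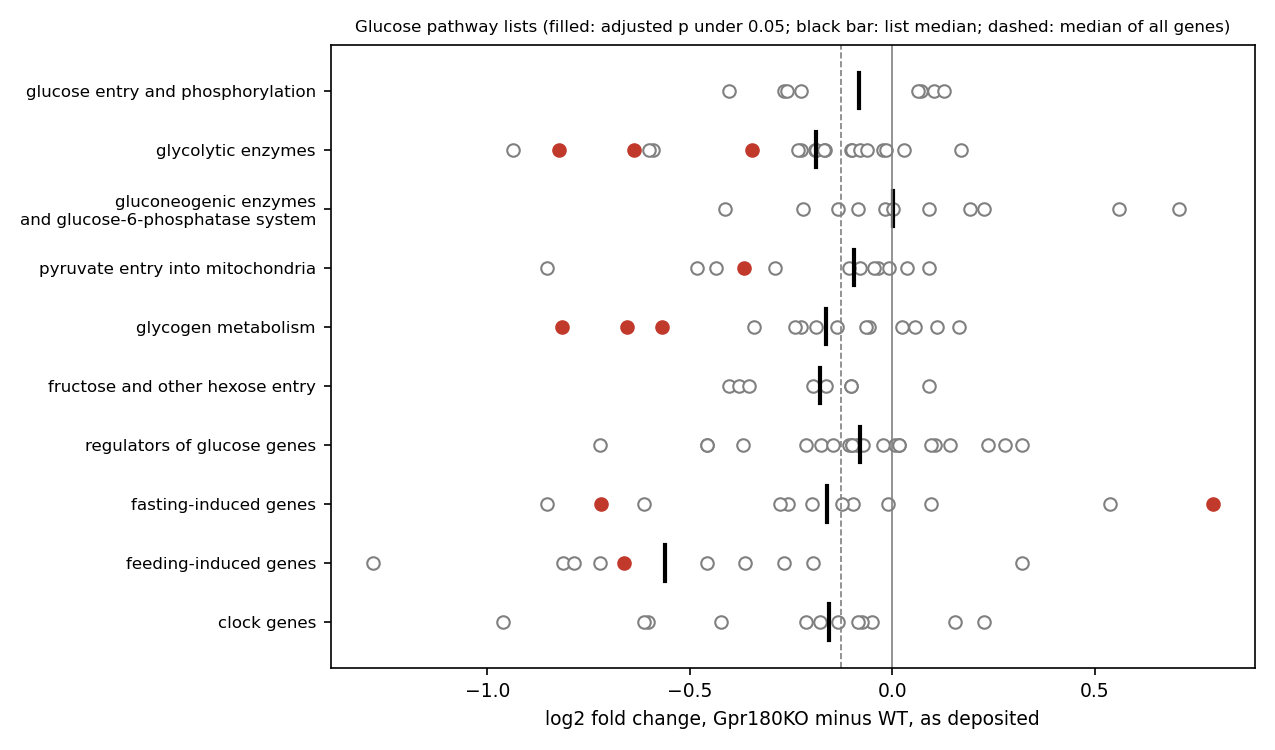
Log2 fold change, *Gpr180*KO minus WT (horizontal axis), of each tested gene in 10 lists of glucose metabolism, with filled points for a limma adjusted p under 0.05, black bars for list medians and a dashed line at −0.13 for all genes. Feeding-induced genes have the lowest median (−0.56), and the gluconeogenic list has a median of 0.00 with *Pck1* at its right end.

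Other cell types of the liver were checked in the same libraries, since in bulk RNA fewer cells of a type and less RNA per cell cannot be told apart. Of 7 stellate cell and fibroblast markers, 4 were lower in *Gpr180*KO (*Col1a1*, *Col1a2*, *Col3a1* and *Pdgfrb*), beside 4.33% of all genes. Their list had summed levels of 19.2 to 117 FPKM in WT and 12.6 to 38.3 FPKM in *Gpr180*KO livers. Of 7 hepatocyte markers tested, 1 was higher, *Serpina1c* (sums 17487 to 22957 and 20791 to 34916 FPKM), while *Alb* had no estimate. Of 6 macrophage markers *Cd68* was lower (sums 110 to 271 and 127 to 190 FPKM), of 5 endothelial markers none was called (sums 70.4 to 112 and 65.1 to 102 FPKM), and *Sox9*, the 1 cholangiocyte marker above the FPKM minimum, was lower (sums over 4 markers 2.72 to 6.02 and 1.43 to 3.43 FPKM). Lymphocyte sums stayed under 5 FPKM with none tested, of 4 adipocyte markers 1 was tested and not called and 1 was at 0 in every liver (sums 16.4 to 65.6 and 17.5 to 65.8 FPKM), and 4 erythroid markers gave no call (sums 655 to 1454 and 674 to 1926 FPKM). After median-of-ratios scaling the erythroid marker *Alas2* was called higher (limma adjusted p = 0.0443) and *Sox9* was not called. *Pklr* is also known from red cells. The part of these cell types in the values of the 9 genes was not tested.

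Over all 18 livers the genotype ranges overlapped for each of the 9 genes, and they were separate for 0.232% of all genes. In diet-first livers they also overlapped for each of the 9, and were separate for 6.07% of all genes. In number-first livers they were separate for *Pklr*, *Pck1* and *Ppargc1a*, which is 3 of 9 beside the 14.8% given above.

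The genes whose pattern over the 18 livers was most like each member were named by Pearson r after median-of-ratios scaling, as a description. *Pklr* was followed by *Hcn3* (r = 0.97), *Rgs16* (r = 0.95) and *Acacb* (r = 0.95), which had log2 fold changes of −1.04, −1.89 and −0.74, none past the threshold in limma (adjusted p = 0.0590, 0.0668 and 0.0704). *Hcn3* is the neighbour of *Pklr* on the opposite strand. In the files (mm10) *Pklr* spans chr3:89136142-89146594 and *Hcn3* begins 180 bases further, at 89146775. In GENCODE M21 the 2 genes overlap by 711 bases, from 89146074 to 89146784, and nearly all of this lies before the *Hcn3* entry of the files. Use of strand in counting is not stated, so reads there cannot be told apart. What such reads add to the value of either gene was not tested. *Pck1* was followed by *Fam210b* (r = 0.92), *Cyp39a1* (r = 0.90) and *Zfp553* (r = 0.89), with log2 fold changes of 0.01, 0.30 and 0.12.

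*G6pc* was followed by *Hspb8* (r = 0.92), *Hnrnpf* (r = 0.87) and *Slc38a2* (r = 0.87). *Gckr* was followed by *Cd1d2* (r = 0.96), *Skiv2l* (r = 0.96) and *Pex5* (r = 0.95), and *Slc2a2* by *Nxpe2* (r = 0.91) and *C77080* (r = 0.85). *Pfkfb1* was followed by *Thrsp* (r = 0.88), *Mlx* (r = 0.83) and *Cyb5r3* (r = 0.82), and *Pfkl* by *Fam173a* (r = 0.95) and *Mrpl28* (r = 0.94). *Fbp1* was followed by *Apon* (r = 0.92), *Tmem66* (r = 0.91) and *Mettl23* (r = 0.91), and *Ppargc1a* by *Ttc17* (r = 0.95), *Dnajc1* (r = 0.90) and *Fam193a* (r = 0.90). None of the genes named here for their pattern passed the limma threshold between genotypes.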

How the data were processed

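Livers were grouped by the genotype label. The authors prepared TruSeq poly(A) libraries, processed reads against mm10 (GRCm38) with Illumina's TopHat Alignment application, whose FPKM output was deposited as 1 table per mouse, with bounds for each value. The step that computed FPKM inside it and its annotation are not given in the sources used here. The tables hold no counts, so depth is unknown, and the bounds do not contain every value. Each table has 23847 entries. FPKM of entries sharing a symbol were summed, 24 genes with a failed or too-high estimate and 170 with a low-data mark were left out, and log2(FPKM + 0.1) was tested for genes with a mean of at least 1 FPKM with limma 3.58.1 (R 4.3.3, lmFit, eBayes with trend, genotype only) and Benjamini-Hochberg adjustment at 0.05. Fold changes are on that scale and understate those of low genes. Exact permutation tests were two-sided. Nothing in the labels beyond the mouse numbers says how the mice relate. The p-values set differences against the spread between these mice and treat the mice as independent, which could not be checked. The limma step was tested on simulated data. The genes and lists were chosen with earlier results of these data known. Named were the 9 members, *Gpr180*, up to 6 called genes per list and the 3 most alike genes per member, some of which are not reported here. *Pgm2*, *Pkm*, *Srebf1*, *Pdk4*, *Txnip*, *Fasn*, *Me1* and the cell type markers with a call were named after their values were seen. Alternatives were other pseudocounts, FPKM minimums, scalings, a title style block, each style alone, each liver left out, other limma settings, and, added after seeing the data, low-data genes kept, correlations within genotype and style, and the style coefficient.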

Additional observations from a re-analysis of the deposited data

Results flagged for a closer look

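In each genotype the highest and lowest liver were compared with the other 8 by Dixon's test, whose critical value is 0.493 for 9 livers. Of 18 groups (9 genes in 2 genotypes) 2 stood out, where chance flags about 1 in 20. Both were the same liver, WT134. *Pklr* in WT134 was 65.3 FPKM, and its gap to the next WT liver took 0.685 of the WT range on the log2 scale. *Slc2a2* in WT134 was 67.3 FPKM, with a gap of 0.684 of the range on the same scale. WT134 also had the highest *Pck1* value of the WT livers (841 FPKM). What set this liver apart was not tested.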

How the results depend on the processing

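The 516 genes called became 846 with an FPKM minimum of 0.1, 242 with a minimum of 5, 295 with median-of-ratios and 294 with 75th percentile scaling, 1158 with the title style block, 1 in diet-first livers alone and 1330 with library weights, and ran from 136 (without WT133) to 926 (without WT157) with single livers left out. *Pklr* (−0.94, adjusted p = 0.0506) passed the limma threshold with a pseudocount of 1 (−0.92, adjusted p = 0.0471), an FPKM minimum of 0.1 (−0.94, adjusted p = 0.0446), TPM scaling (−0.97, adjusted p = 0.0401) and the block (−0.94, adjusted p = 0.0162), over a range of adjusted p from 0.0162 to 0.102. It did not pass, and moved by over 1.5 times, with library weights (−0.56, adjusted p = 0.0663), in number-first livers (−0.33, adjusted p = 0.0685) and in diet-first livers (−1.42, adjusted p = 0.0891). *Pklr* also did not pass with the block and median-of-ratios scaling together (−0.78, limma adjusted p = 0.0527). With single livers left out it ran from −1.05 to −0.76 and passed without WT134 (−1.05, adjusted p = 0.0303), KO319 (−1.03, adjusted p = 0.0351), KO321 (−1.02, adjusted p = 0.0357) or KO322 (−1.04, adjusted p = 0.0400). *Pck1* (0.71) passed with median-of-ratios scaling (0.86), the block (0.71), number-first livers alone (0.98), library weights (0.83) and the block with median-of-ratios scaling (0.86), with limma adjusted p from 0.00589 to 0.385 over all alternatives. With single livers left out it ran from 0.61 to 0.82 and passed without WT131 (0.80, adjusted p = 0.0434), WT134 (0.82, adjusted p = 0.0255), WT157 (0.73, adjusted p = 0.0495) or KO51 (0.78, adjusted p = 0.0397). *Pfkl* (0.03) turned to −0.0067 with TPM scaling, −0.22 in number-first livers and −0.10 with library weights, and *Ppargc1a* (0.02) to −0.015 with TPM scaling and −0.17 in diet-first livers, and it was not tested at a minimum of 5 FPKM. Leaving out single livers gave −0.010 (without WT134) to 0.15 for *Gckr*, 0.090 (without KO54) to 0.34 (without WT131) for *G6pc* with 0.096 without WT156 and 0.15 without KO53, 0.052 (without WT133) to 0.13 for *Fbp1*, −0.056 to 0.089 for *Pfkl* and −0.092 to 0.16 for *Ppargc1a*. The interaction of *G6pc* (0.09) became −0.028 with median-of-ratios scaling, and *Fbp1* over *Pfkl* was −0.090 in diet-first livers. *Pklr* and *Gckr* passed after subtracting the mean of each genotype and style (r = 0.71), but r was 0.25 and 0.28 in the number-first and diet-first livers alone. *Gckr*, *Pfkfb1*, *Slc2a2*, *G6pc* and *Fbp1* kept their direction and did not pass the threshold under the 16 alternatives other than leaving out livers. The causes were not tested. No paired analysis was possible because WT319 and KO319, and WT320 and KO320, share a number but are different mice, and no other number is shared. Depth is unknown, and of the 3 genes whose values lie within the deposited bounds, *Ppargc1a* has the widest.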
